A study of Mus musculus with 6 samples.

Results

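The 9 genes described here are transcription factors and mesenchymal markers of the epithelial-mesenchymal transition (EMT), measured in mammary epithelial organoids. They were taken by symbol from a list of 6 transcription factor genes (Snai1, Snai2, Zeb1, Zeb2, Twist1 and Twist2) and 3 mesenchymal markers (Vim, Cdh2 and S100a4), and all 9 were found among the 17739 genes of the table. The libraries came from 3 mice with a conditional knockout of Nmi, given as Nmi-/- in the labels (here Nmi KO), and 3 wild-type mice (WT), all on the FVB background and all on lactation day 1. Organoids are pieces of epithelium freed from the gland by enzymes and enriched by short spins, and each library is 1 mouse. The organoids came from the second and the third glands, digested with collagenase I and Pronase. The comparison asks how loss of Nmi bears on excess growth of the mammary epithelium. The sources used here do not state the promoter that drives the deletion or the ages of the mice.

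EMT is a change of state in which epithelial cells loosen their junctions and take on features of migrating cells. The SNAIL proteins (Snai1, Snai2) and ZEB proteins (Zeb1, Zeb2) bind E-box sequences and repress epithelial genes such as Cdh1, which encodes E-cadherin, while the TWIST proteins are basic helix-loop-helix factors that act beside them. Vim (vimentin, an intermediate filament), Cdh2 (N-cadherin) and S100a4 (a calcium-binding protein) are used as markers of the mesenchymal state, and Snai2 is also known as a factor of basal mammary epithelial cells. Fibroblasts, endothelial cells and leukocytes make vimentin as well, so in bulk RNA these markers are not specific to cells in transition.

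The factors come in pairs of related genes, and the coding sequences of each pair are shown because reads of one could be taken for the other. Snai1 and Snai2 start with the same 22 coding bases, which encode the beginning of the SNAG domain that recruits corepressors. The first 60 coding bases of each follow, from GENCODE M21 on GRCm38, with the shared run in capitals.
Snai1: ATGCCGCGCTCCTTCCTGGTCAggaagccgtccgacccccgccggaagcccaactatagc
Snai2: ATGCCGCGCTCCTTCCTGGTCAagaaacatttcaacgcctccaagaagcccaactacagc

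This run of 22 bases is the longest that both coding sequences share. Twist1 and Twist2 are closest in the helix-loop-helix region. Coding bases 403 to 492 of Twist1 and 265 to 354 of Twist2 differ at 9 of 90 positions, which are in capitals here.
Twist1: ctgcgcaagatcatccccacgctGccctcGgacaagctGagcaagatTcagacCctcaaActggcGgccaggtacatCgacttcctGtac
Twist2: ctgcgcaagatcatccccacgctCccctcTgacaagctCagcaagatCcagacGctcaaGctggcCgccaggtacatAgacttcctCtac

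The longest identical run of the Twist pair was 23 bases, and that of Zeb1 and Zeb2 was also 23 bases. In none of the 3 pairs did the coding sequences share a stretch of 50 bases. Overlaps with other annotated genes were larger. For S100a4 (GRCm38 chromosome 3, 90603771 to 90606045, plus strand, 3 exons) 56.3% of the 50-base windows of the longest transcript also lie in Gm42674, an annotated protein-coding gene on the same strand. For Twist2 (chromosome 1, 91801461 to 91848028, plus strand) 57.3% lie in Gm29100, an antisense transcript. The strand setting of the counting is not given in the sources used here. In the stretches that Twist2 shares with Gm29100, reads of the 2 genes therefore cannot be told apart here. The S100a4 value may hold reads of Gm42674. Zeb2 (chromosome 2, 44983632 to 45117395, minus strand) shares 1.36% of its windows with the antisense gene Zeb2os, which was listed between 0.0246 and 0.0494 FPKM. Snai2 (chromosome 16, 14705852 to 14709385, plus strand, 3 exons) shares 0.963% with other genes. Snai1 (chromosome 2, 167538195 to 167542814, plus strand, 3 exons), Vim (chromosome 2, 13573927 to 13582826, plus strand, 9 exons in the longest transcript) and Twist1 (chromosome 12, 33957671 to 33959829, plus strand, 2 exons) share none, and neither do Zeb1 and Cdh2.

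Promoter windows were read from RefSeq on GRCm38.p6 for 6 of the members (Snai1, Zeb2, Twist1, Twist2, Vim and S100a4), as the 250 bases before each annotated start. The E-box CACCTG, or CAGGTG on the other strand, is the letter sequence that SNAIL and ZEB proteins bind. It was found in 1 of the 9 windows of these 6 members, that of Snai1, where it begins 126 bases before the start, and in 17.2% of all 32851 promoter windows. TATAAA (or TTTATA) was found in the windows of Vim, S100a4 and Twist1, 32, 31 and 126 bases before the start, and in 12.4% of all windows. The STAT element TTCNNNGAA, of interest because the Nmi protein binds STAT proteins, was found in windows of Zeb2 among these members and in 7.02% of all windows. The windows of Snai1 (chr2:167537945-167538194, plus strand, 70% G or C) and S100a4 (chr3:90603520-90603769, plus strand, 57.2% G or C) show both kinds. The matched motif is in capitals.
Snai1: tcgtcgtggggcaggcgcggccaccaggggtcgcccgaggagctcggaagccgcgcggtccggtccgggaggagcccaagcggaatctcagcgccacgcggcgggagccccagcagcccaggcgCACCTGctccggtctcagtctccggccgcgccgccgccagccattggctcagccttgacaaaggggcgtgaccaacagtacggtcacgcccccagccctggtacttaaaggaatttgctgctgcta
S100a4: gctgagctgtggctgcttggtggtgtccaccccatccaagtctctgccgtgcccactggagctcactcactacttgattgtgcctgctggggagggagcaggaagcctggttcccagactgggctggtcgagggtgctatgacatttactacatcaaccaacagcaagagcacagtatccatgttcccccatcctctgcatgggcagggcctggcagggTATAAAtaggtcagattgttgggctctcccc

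Values are FPKM (fragments per kilobase of transcript, scaled to the mapped fragments of the library), as deposited. Nmi itself was listed at 0.188, 0.547 and 0.564 FPKM in Nmi KO replicates 1, 2 and 3, against 4.60, 2.82 and 2.32 FPKM in WT replicates 1, 2 and 3. Its log2 fold change was -1.54 (SE 0.23), with the smallest adjusted p of all genes, 0.372 (limma). A list of 20 milk protein genes took 63.2% to 75.5% of the FPKM sum in Nmi KO libraries and 47.7% to 69.7% in WT libraries, with the highest share in Nmi KO replicate 3 and the lowest in WT replicate 1. Because FPKM divides by the library total, a larger milk share lowers the FPKM of other genes. Values were therefore also scaled to the FPKM sum outside the milk list, which multiplies Nmi KO replicate 3 by 1.27 and WT replicate 1 by 0.802. The absolute depth is unknown. The relative depth, read from genes between 0.001 and 0.1 FPKM, ran from 0.975 to 1.13 times that of WT replicate 1. Epithelial markers were abundant in every library (Krt8 between 198 and 982 FPKM in Nmi KO and between 647 and 1515 FPKM in WT).

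Most of the 9 members were weakly expressed. The limit for the test, 1 FPKM in at least 3 libraries, was reached by 4 of them (Vim, Snai2, S100a4 and Zeb1). Mean FPKM over the 6 libraries was 61.6 for Vim, 5.08 for Snai2, 1.76 for S100a4, 1.09 for Zeb1 and 0.776 for Snai1. It was 0.412 for Zeb2, 0.337 for Twist1, 0.286 for Cdh2 and 0.207 for Twist2. By their means, Vim exceeded 97.9% of all genes in the table, Snai2 70.2%, S100a4 52.3% and Twist2 30.5%. The order Vim over Snai2 over S100a4 held in each of the 6 libraries. Lower down the order was not firm. S100a4 lay above Zeb1, Zeb1 above Snai1, and Snai1 above Zeb2 in 5 of 6 libraries each. Zeb2 lay above Twist1 in 4 of 6, and Twist1 above Cdh2 in 3 of 6, so these neighbours did not differ beyond their spread.

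**Figure D1:**
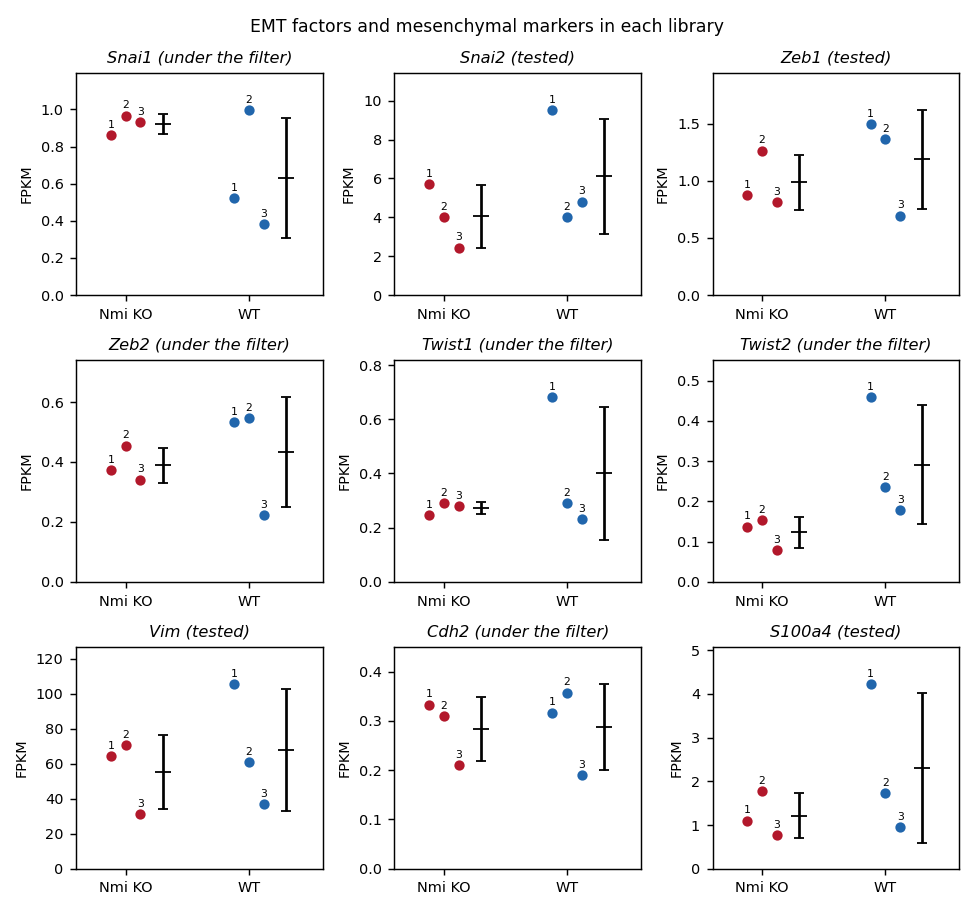
FPKM (linear axes from 0, a separate scale for each gene) of the 9 members in 3 Nmi KO (red, left) and 3 WT libraries (blue, right). Numbers give the replicate and black bars the mean and SD of 3 libraries; the groups overlap for 8 genes, and for Twist2 the 3 Nmi KO points lie between 0.0789 and 0.153, under all WT points.

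Snai2 was the most abundant of the 6 factors. It had 5.71, 4.01 and 2.44 FPKM in Nmi KO replicates 1, 2 and 3, against 9.51, 4.01 and 4.81 FPKM in WT replicates 1, 2 and 3. WT replicate 1 stood highest and Nmi KO replicate 3 lowest, and the groups overlapped. The means were 4.05 ± 1.63 FPKM in Nmi KO and 6.11 ± 2.97 FPKM in WT (SD, n = 3 each). On the log2(FPKM + 1) scale used throughout, Snai2 differed by -0.47 (SE 0.33, 95% confidence interval -1.19 to 0.26), with an adjusted p of 0.768 (limma, Benjamini-Hochberg over all genes tested). It was -0.15 without WT replicate 1 and -0.22 without Nmi KO replicate 3.

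Snai1, the founding member of the SNAIL family, ran differently. It had 0.861, 0.967 and 0.933 FPKM in Nmi KO replicates 1, 2 and 3, against 0.521, 0.996 and 0.380 FPKM in WT replicates 1, 2 and 3. The Nmi KO libraries lay close together, and WT replicate 2 was above all of them, so the groups overlapped. The means were 0.920 ± 0.0538 FPKM in Nmi KO and 0.633 ± 0.323 FPKM in WT (SD, n = 3 each; two-sided exact permutation p = 0.4, where 0.1 is the smallest that 3 against 3 libraries allow). Snai1 was the member with the highest ratio of means, 1.46 as deposited and 1.69 after scaling outside the milk genes. The level of Snai2 over that of Snai1 was 6.63, 4.15 and 2.62 in Nmi KO libraries, against 18.3, 4.02 and 12.7 in WT libraries, so that Snai2 exceeded Snai1 in each library and the groups overlapped.

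Zeb1 (chromosome 18, 5591860 to 5775467, plus strand) and Zeb2 kept a steady proportion. Zeb1 had 0.878, 1.27 and 0.816 FPKM in Nmi KO replicates 1, 2 and 3, against 1.50, 1.37 and 0.695 FPKM in WT replicates 1, 2 and 3, and WT libraries held both the highest and the lowest value. The genotypes differed in Zeb1 by -0.13 in log2 (SE 0.21, adjusted p = 0.809, limma), with a 95% confidence interval from -0.58 to 0.33. Zeb2 had 0.372, 0.454 and 0.341 FPKM in Nmi KO, against 0.533, 0.546 and 0.223 FPKM in WT, and here too WT libraries held both ends. Zeb2 stood at 0.424, 0.359 and 0.418 of the Zeb1 level in Nmi KO libraries, against 0.355, 0.399 and 0.321 in WT libraries. Zeb2 lies 6831092 bases from Nmi on chromosome 2.

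The TWIST genes were listed at low levels. Twist1 had 0.248, 0.292 and 0.280 FPKM in Nmi KO replicates 1, 2 and 3, against 0.682, 0.289 and 0.231 FPKM in WT replicates 1, 2 and 3. WT replicate 1 stood apart, and the other 5 libraries lay between 0.231 and 0.292 FPKM. Twist2 had 0.137, 0.153 and 0.0789 FPKM in Nmi KO, against 0.459, 0.236 and 0.179 FPKM in WT. The groups did not overlap for Twist2, as deposited and after scaling outside the milk genes. Over all 17739 genes, 3.61% were lower in Nmi KO without overlap and 1.46% were higher as deposited, and 3.3% were lower and 3.05% higher after the scaling. The Twist2 means were 0.123 ± 0.0390 FPKM in Nmi KO and 0.291 ± 0.148 FPKM in WT (SD, n = 3 each; two-sided exact permutation p = 0.1, the smallest possible). In the fit without a filter the adjusted p of Twist2 was 0.829 (limma, unadjusted p = 0.0509), and the lowest adjusted p of any of the 9 members in that fit was also 0.829. These levels are low, and the overlap of Twist2 with Gm29100 limits how the value can be assigned.

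Vim made up most of the summed level of the members. It had 64.5, 70.5 and 31.2 FPKM in Nmi KO replicates 1, 2 and 3, against 105.7, 61.1 and 36.8 FPKM in WT replicates 1, 2 and 3. The groups overlapped, with WT replicate 1 highest and Nmi KO replicate 3 lowest. The means were 55.4 ± 21.2 FPKM in Nmi KO and 67.9 ± 34.9 FPKM in WT (SD, n = 3 each). Vim had a fold change of -0.24 in log2 (SE 0.42, adjusted p = 0.813, limma), and the 95% confidence interval ran from -1.17 to 0.68. It was -0.05 after scaling outside the milk genes, 0.14 without WT replicate 1 and 0.12 without Nmi KO replicate 3, so its sign rested on these libraries.

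S100a4 had the widest range of the tested members, a factor of 5.46 between the highest and the lowest library. It had 1.10, 1.77 and 0.774 FPKM in Nmi KO replicates 1, 2 and 3, against 4.23, 1.73 and 0.959 FPKM in WT replicates 1, 2 and 3. Only WT replicate 1 lay outside the range of 0.774 to 1.77 FPKM. For S100a4 the fold change was -0.48 in log2 (SE 0.33, adjusted p = 0.768, limma; 95% confidence interval from -1.20 to 0.24), and -0.09 without WT replicate 1. Cdh2 (chromosome 18, 16588877 to 16809246, minus strand) was low and even, with 0.333, 0.309 and 0.210 FPKM in Nmi KO, against 0.317, 0.357 and 0.191 FPKM in WT. Its means were 0.284 ± 0.0652 FPKM in Nmi KO and 0.288 ± 0.0869 FPKM in WT (SD, n = 3 each). Cdh1 stood at 302, 586 and 261 times the Cdh2 level in Nmi KO libraries, against 785, 451 and 617 times in WT libraries.

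No member passed the test between the genotypes, and neither did any other gene: 0 of 9767 genes were lower and 0 were higher in Nmi KO at an adjusted p under 0.05 (0% of genes in each direction, limma). At an unadjusted p under 0.05, 1.15% of genes were lower and 0.184% higher, and 0 of the 4 tested members were among them. The share of genes past that limit that were higher in Nmi KO was 13.8% as deposited, 56.8% after trimmed-mean rescaling and 43.6% after scaling outside the milk genes. The groups overlapped for all 4 tested members, while 3.83% of the tested genes were lower and 0.778% higher without overlap as deposited (4.07% and 2.14% after scaling outside the milk genes). All 4 tested members had a negative fold change as deposited, as did 81.7% of the genes tested. Their median was -0.36, against -0.21 over all genes. Relative to that median, Snai2 stood at -0.26, S100a4 at -0.27, Vim at -0.04 and Zeb1 at 0.08. After trimmed-mean rescaling, which moved the median of all genes to 0.01, 2 members were negative (Snai2 at -0.25, S100a4 at -0.31) and 2 positive (both Vim and Zeb1 at 0.02). The interval of Vim holds changes of more than 1 downward and 0.5 upward, so changes of these sizes remain compatible with these libraries. The size of change that could be detected was not computed.

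**Figure D2:**
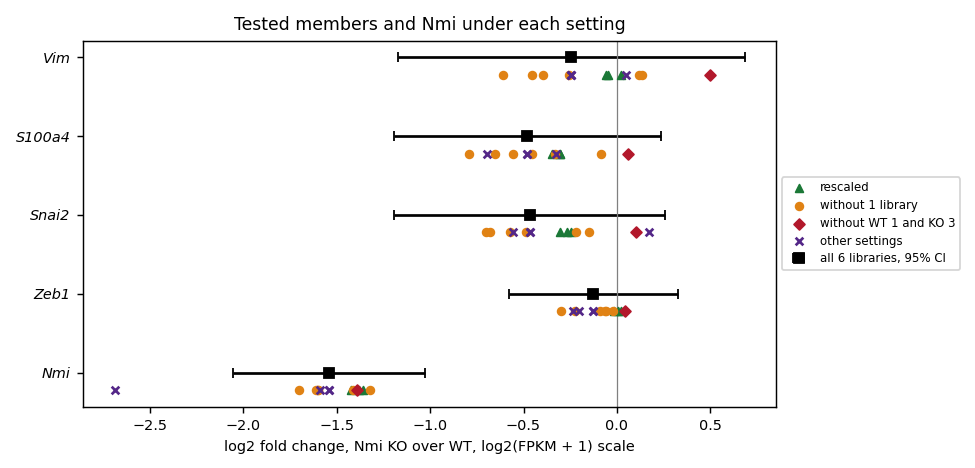
Log2 fold change (Nmi KO over WT, log2(FPKM + 1) scale) of the 4 tested members and Nmi. Black squares with bars are the estimate and 95% confidence interval from all 6 libraries, and coloured marks below them are the estimates under other settings; for Vim they run from -0.61 to 0.50 across 0, while those of Nmi stay under -1.

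As deposited, WT replicate 1 was the highest library for 6 of the 9 members and WT replicate 2 for the other 3 (Snai1, Zeb2 and Cdh2). The lowest was Nmi KO replicate 3 for 4 members (Snai2, Twist2, Vim and S100a4) and WT replicate 3 for the other 5. Among all genes tested, WT replicate 1 was highest for 63.5% and Nmi KO replicate 3 lowest for 65.8%, whereas WT replicate 3 was lowest for 10.8%. Of those 5 members only Zeb1 was tested, and among 4522 untested genes above 0 in every library WT replicate 3 was lowest for 24.2% and Nmi KO replicate 3 for 31.3%. Scaling outside the milk genes narrowed the range of Vim from 3.39 to 2.14 times between the highest and lowest library and that of Snai2 from 3.89 to 2.46 times. The lowest library remained Nmi KO replicate 3 for the 4 members named above and WT replicate 3 for the other 5, while over all genes tested Nmi KO replicate 3 was then lowest for 40.2%. Snai1 then peaked in Nmi KO replicate 3, at 1.19 FPKM, against 0.415 FPKM in WT replicate 3.

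**Figure D3:**
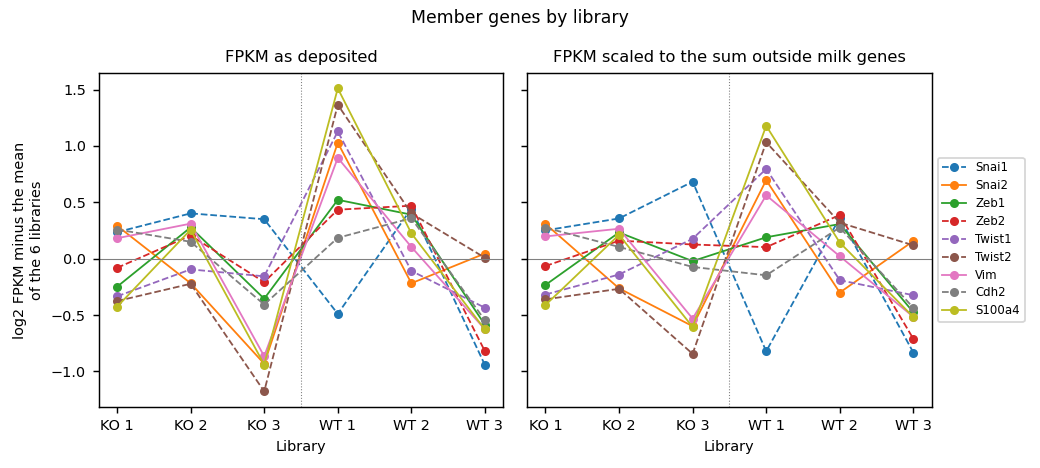
Log2 FPKM of each member minus its mean over the 6 libraries (y axis) by library (x axis, 3 Nmi KO then 3 WT), as deposited (left) and after scaling to the FPKM sum outside the milk genes (right); solid lines are tested members and dashed lines the others. Most lines peak at WT replicate 1 or 2 and dip at Nmi KO replicate 3 or WT replicate 3, and Snai1 runs apart from them at WT replicate 1.

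Markers of other cell types were listed in the same libraries, and in bulk RNA fewer cells of a type and less RNA per cell cannot be told apart. The sum of 10 endothelial markers was 112, 156 and 80.1 FPKM in Nmi KO replicates 1, 2 and 3, against 168, 151 and 87.8 FPKM in WT replicates 1, 2 and 3, with none of the 10 at 0 in any library. Like Vim, this sum was highest in WT replicate 1 and lowest in Nmi KO replicate 3 as deposited. Of all genes tested, 50.8% had this highest and this lowest library. After scaling outside the milk genes the endothelial sum was highest in Nmi KO replicate 2 and lowest in WT replicate 3. Vim stood at 3.47, 2.42 and 2.15 times the level of Pecam1, an endothelial adhesion gene, in Nmi KO, against 3.13, 2.38 and 2.46 times in WT. The sum of 10 fibroblast markers ranged from 42.9 to 76.8 FPKM in Nmi KO and from 28.9 to 65.9 FPKM in WT. None of them was at 0, and the sum was highest in Nmi KO replicate 2. Positive fold changes were found for 6 of 6 tested fibroblast markers (median 0.20) and 6 of 6 tested pericyte markers (median 0.10). Negative ones were found for 81.7% of all genes tested. The sum of 8 pericyte markers ranged from 27.6 to 42.0 FPKM in Nmi KO and from 22.9 to 37.9 FPKM in WT, with Higd1b at 0 in WT replicate 1.

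Immune cells showed another order. The sum of 10 macrophage markers was 11.5, 24.1 and 26.8 FPKM in Nmi KO, against 12.9, 17.2 and 15.7 FPKM in WT, with Aif1 at 0 in WT replicate 1. This sum was thus highest in Nmi KO replicate 3, where S100a4 and Vim were lowest. Of the 4 tested macrophage markers 3 had positive fold changes. Cd68, which has the highest mean on the list, went the other way. It had 5.0, 5.6 and 3.3 FPKM in Nmi KO, against 6.9, 6.8 and 6.9 FPKM in WT, without overlap. Among the genes tested, 3.83% were lower in Nmi KO without overlap. The 7 lymphocyte markers in the table summed to 0.213 to 0.281 FPKM in Nmi KO and 0.0619 to 0.186 FPKM in WT, levels close to 0. The groups did not overlap for this sum, but among single genes they did not for 1 of the 7 (Cd3e), where 1.46% of all genes were higher in Nmi KO without overlap. Each of the 7 was at 0 in at least 1 library. Adipocyte markers summed to 166 to 460 FPKM in Nmi KO and 227 to 683 FPKM in WT, of which Fabp4, also made by endothelial cells, held 95.7%, while Adipoq and Plin1 were at or under 0.0957 FPKM. The nerve sheath list summed to 53.3 to 109.6 FPKM in Nmi KO and 101.4 to 144 FPKM in WT, and Sox10, which mammary epithelium also makes, held 86.1%. Basal and myoepithelial markers, of which none was at 0, summed to 519, 1684 and 524 FPKM in Nmi KO, against 1285, 1049 and 615 FPKM in WT. This sum, of which Acta2 held 36.9%, peaked in Nmi KO replicate 2, where Snai2 was at 4.01 FPKM. Trp63, a basal factor gene on this list, had 2.25, 2.81 and 1.81 FPKM in Nmi KO, against 9.22, 3.29 and 2.94 FPKM in WT. It was highest in WT replicate 1 and lowest in Nmi KO replicate 3, as were Snai2 and 50.8% of all genes tested. On the same list Krt14 and Itga6 had these extremes too, while Acta2 and Tagln peaked in Nmi KO replicate 2. Of the 12 markers only Trp63 did not overlap between the groups, where 3.83% of the genes tested were lower without overlap. The part of these cell types in the levels of the members was not tested.

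**Figure D4:**
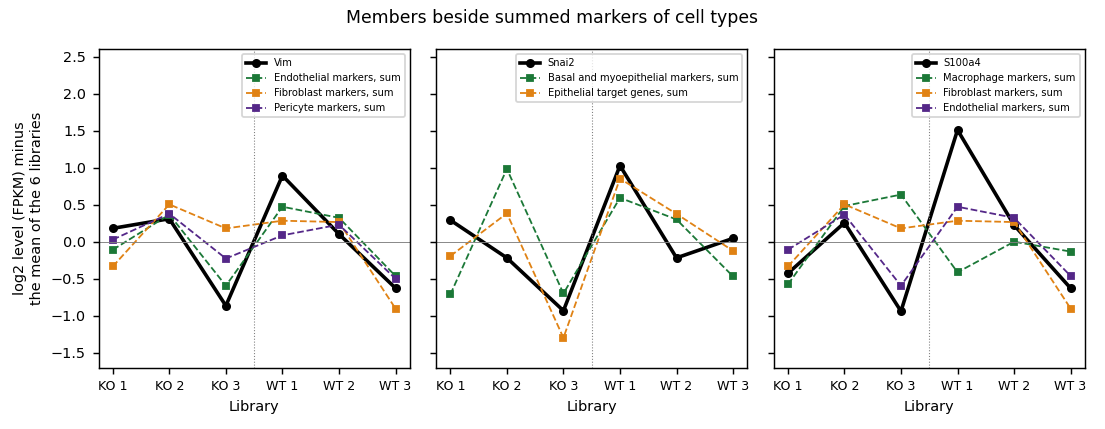
Log2 level of Vim, Snai2 and S100a4 (black) and of the summed FPKM of marker lists (dashed), each minus its mean over the 6 libraries, by library (3 Nmi KO, then 3 WT). Vim and the endothelial sum are both highest in WT replicate 1 and lowest in Nmi KO replicate 3, as are 50.8% of all genes tested. The basal sum peaks in Nmi KO replicate 2 and the macrophage sum in Nmi KO replicate 3, where Snai2 and S100a4 do not peak. The single markers Trp63 and Cd68 run differently from the sums of their lists.

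Genes around the members in the pathway were taken from fixed lists, and 0 of them passed the adjusted threshold in either direction (limma). Of 7 tested genes among the other EMT transcription factors, 5 had negative fold changes (3 after trimmed-mean rescaling) and their median was -0.17, against -0.21 for all genes. Foxc1, a forkhead factor, was 1 of them, with 10.7, 12.2 and 5.77 FPKM in Nmi KO, against 16.4, 16.6 and 14.9 FPKM in WT (log2 fold change -0.74, SE 0.29, unadjusted p = 0.0257, adjusted p = 0.768). The groups did not overlap for Foxc1; among the genes tested, 3.83% were lower in Nmi KO without overlap. Tcf3, which encodes the E2A proteins, had a log2 fold change of -0.61 (SE 0.37), and Sox4 and Sox9 had 0.01 (SE 0.32) and 0.12 (SE 0.28).

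The epithelial genes that the factors are known to repress had negative fold changes for 14 of 15, where 81.7% of all genes tested were negative, with a median of -0.56, under the median of all genes (-0.21). None passed the test. Cdh1 had 100.8, 181 and 54.8 FPKM in Nmi KO replicates 1, 2 and 3, against 249, 161 and 118 FPKM in WT replicates 1, 2 and 3, and the groups overlapped. The keratin genes Krt18 (-1.10, SE 0.53) and Krt8 (-0.99, SE 0.55) and the tight junction gene Ocln (-0.56, SE 0.31) had adjusted p = 0.768 each (limma). After scaling outside the milk genes 14 of 15 were negative (59% of all genes), with a median of -0.36 against -0.05 for all genes. The 1 positive gene, as deposited and after this scaling, was Muc1, which is also on the milk list. After trimmed-mean rescaling 12 of 15 were negative (48.3% of all genes), with a median of -0.30 against 0.01. The summed level of the list was highest in WT replicate 1 and lowest in Nmi KO replicate 3, as deposited and after scaling outside the milk genes. So was Krt8 as deposited, with 596 and 982.5 FPKM in the other Nmi KO libraries and 928.5 and 647 FPKM in the other WT libraries. This highest and this lowest library were found for 50.8% of all genes tested as deposited and for 21.4% after the scaling. List medians without WT replicate 1 and Nmi KO replicate 3 are not reported here. The factors that hold the epithelial state had negative fold changes for 10 of 13 as deposited, close to the share of all genes, and for 8 of 13 after either rescaling. Their median as deposited was -0.31, and the negative ones included Ovol2 (-0.50, SE 0.24) and the ETS factor gene Ehf (-0.77, SE 0.37), while Elf5, a factor of alveolar cells, was at 0.19 (SE 0.30).

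Mesenchymal effectors lay close to all genes. Of 15 tested, 11 had negative fold changes, and the median was -0.21, as for all genes. The matrix gene Sparc (-0.15, SE 0.42), the protease gene Mmp14 (-0.55, SE 0.36) and the hyaluronan receptor gene Cd44 (-0.60, SE 0.41) were among them, and Spp1 (osteopontin), which the lactating gland makes in large amounts, was at 0.59 (SE 0.62). Of 12 tested ligands, receptors and SMAD genes of TGF-beta signalling, a main inducer of EMT, 10 were negative with a median of -0.19. Tgfbr2 (-0.26, SE 0.33), Tgfb3 (-0.25, SE 0.36), Smad4 (-0.41, SE 0.31) and the SMAD corepressor gene Ski (-0.44, SE 0.31) were the named ones. Of 15 tested genes for turnover and cofactors of the SNAIL and ZEB proteins, 15 were negative with a median of -0.32. The corepressor gene Sin3a (-0.55, SE 0.26), the ubiquitin ligase gene Fbxl14 (-0.37, SE 0.27), the kinase gene Csnk1a1 (-0.20, SE 0.29) and the histone demethylase gene Kdm1a (-0.37, SE 0.33) were the named ones. After trimmed-mean rescaling 9 of these 15, 4 of the 12 TGF-beta genes and 7 of the 15 effectors were negative, where 48.3% of all genes were.

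**Figure D5:**
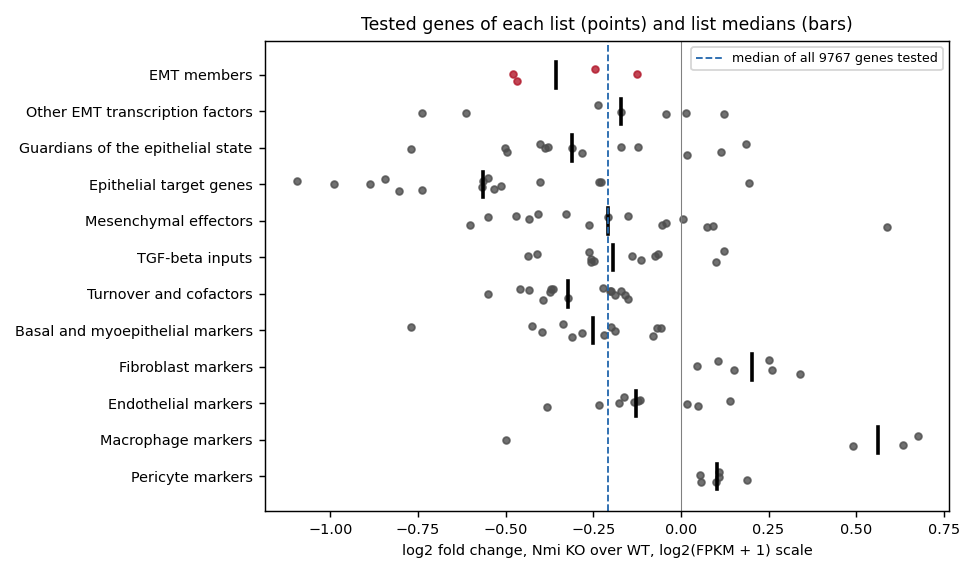
Log2 fold change (Nmi KO over WT, log2(FPKM + 1) scale) of each tested gene (points) by list, with list medians (black bars) and the median of all genes tested (dashed line, -0.21). The epithelial target genes have the lowest list median (-0.56) and the 4 tested macrophage markers the highest (0.56). Among those macrophage markers 3 are positive and Cd68 is at -0.50. The 4 tested members lie between -0.48 and -0.13.

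The genes with the most similar course to Vim over the 6 libraries, by the root mean square distance between log2 values centred on the libraries, included Emp3 (0.08), Ifitm2 (0.12), Ptms (0.13) and Tmem40 (0.13), against a median distance of 0.42 over all genes tested. Ifitm2, an interferon-induced membrane protein gene, had 46.7, 57.5 and 26.0 FPKM in Nmi KO replicates 1, 2 and 3, against 72.6, 47.8 and 32.7 FPKM in WT replicates 1, 2 and 3. For Snai2 the nearest were Cxcr4 (0.07), a chemokine receptor gene, then Lrch1 (0.08), Rassf7 (0.09), Cables1 (0.11) and Bach2 (0.12), against a median of 0.39. Cxcr4 had 6.63, 4.12 and 2.44 FPKM in Nmi KO, against 10.02, 4.73 and 5.33 FPKM in WT; it was chosen for its likeness, so the shared course is no finding.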

How the data were processed

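RNA of mammary organoids from 6 mice was sequenced, and the authors deposited FPKM values in 1 table of 17739 gene symbols. FastQC, TopHat, SAMtools and Cufflinks, with builds mm10 and GRCm38, are named in the submitters' processing notes; the sources used here give no versions, annotation or strand settings. Libraries were grouped by the genotype label; mouse numbers pair nothing, and nothing beyond them says how the mice were housed or collected. Genes at 1 FPKM or more in at least 3 libraries (9767) were tested as log2(FPKM + 1) with limma 3.58.1 in R 4.3.3 (intensity trend, two-sided, Benjamini-Hochberg, threshold 0.05). A check on simulated data drew independent noise for each gene. It held no shift of a whole library, so it does not cover the courses of WT replicate 1 and Nmi KO replicate 3. The pseudocount of 1 understates changes of low genes. Exact permutation tests used scipy 1.17.1. Gapdh was listed between 0 and 0.0769 FPKM, so a low entry can be a failed estimate. No interval for counting error was computed, since fragment numbers are not given.

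Members and lists were chosen with earlier results of these data known. Named genes are the members, Nmi, for each pathway list the 2 tested genes with the smallest p and the 2 with the highest mean, for each cell type list the 2 with the highest mean (given where a result turns on them), and the 5 genes nearest to Vim and to Snai2 (predicted models left out; 1 of those near Vim is not reported here). Ratios between genes were chosen after the values were seen. Alternatives were a pseudocount of 0.1, other filters, 3 rescalings, quality weights and leaving out libraries.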

Additional observations from a re-analysis of the deposited data

How the results depend on the processing

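The count of genes at an adjusted p under 0.05 (0 with all libraries, limma) was 2 with array quality weights and 1 without WT replicate 1 and Nmi KO replicate 3 together; the adjusted p of each tested member stayed at 0.403 or above in every setting, that of Nmi was 0.000671 with weights (0.169 or above elsewhere), and leaving out any 1 library gave 0. Genes at an unadjusted p under 0.05 numbered 130, between 25 (without WT replicate 1) and 1187 (without Nmi KO replicate 2) when 1 library was left out, with 59 without Nmi KO replicate 3 and 632 without WT replicate 3, 1142 with weights, 326 without a filter and 78 without both libraries. The fold change of Vim was positive after trimmed-mean rescaling (0.023), with weights (0.049) and without both libraries (0.50), and ran from -0.61 to 0.14 with 1 library left out. That of Snai2 was 0.17 with weights and 0.10 without both libraries (-0.70 to -0.15 with 1 left out). That of Zeb1 was 0.021 after trimmed-mean rescaling, 0.0039 after quantile normalization and 0.042 without both libraries (-0.30 to -0.02 with 1 left out, -0.02 without WT replicate 1). That of S100a4 was 0.061 without both libraries and ran from -0.79 to -0.09 with 1 left out. The cause was not tested. The difference in mean log2(FPKM + 1) of Twist2 was -0.20, and -0.08 without both libraries (-0.26 to -0.10 with 1 left out, -0.10 without WT replicate 1). Snai2 was 6.55 times the level of Snai1 by their means (5.07 to 7.53 with 1 library left out). With 3 mice a group, the median 95% confidence interval of a gene reached 0.57 on the log2 scale to either side, and fragment numbers were unknown. No paired analysis was possible because the mouse numbers of the genotypes are not shared.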

Other observations

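Of 13 ratios within a library, chosen after the values were seen and given with no test, 2 did not overlap between the genotypes, Twist2 over Twist1 and Krt8 over Vim. No share over ratios of other genes was computed, so nothing can be read from this count. Twist2 stood at 0.555, 0.523 and 0.282 of the Twist1 level in Nmi KO replicates 1, 2 and 3, against 0.674, 0.814 and 0.777 in WT replicates 1, 2 and 3. Both genes were under 1 FPKM in each library, and reads in the stretches that Twist2 shares with Gm29100 cannot be told apart here. Krt8, a luminal keratin gene, stood at 9.25, 13.9 and 6.34 times the Vim level in Nmi KO, against 14.3, 15.2 and 17.6 times in WT. Cdh1 stood at 1.56, 2.57 and 1.76 times the Vim level in Nmi KO, against 2.35, 2.64 and 3.19 times in WT, and here the groups overlapped. Snai2 stood at 2.53, 1.42 and 1.35 times the level of Trp63, which encodes the basal factor p63, in Nmi KO, against 1.03, 1.22 and 1.64 times in WT, also with overlap. In a ratio between genes of the same library the library total cancels, and the ratio shows unequal levels only. Whether these ratios follow the milk share was not tested.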
